A study of Caenorhabditis elegans with 6 samples.

Results

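The response to unfolded proteins in the endoplasmic reticulum (UPR-ER) and the integrated stress response were followed here through 8 genes, taken by symbol from the 19933 genes of the deposited expression table: *ire-1*, *xbp-1*, *rtcb-1*, *pek-1*, *gcn-2*, *gcn-1*, *atf-4* and *atf-6*. The RNA came from embryos laid by *C. elegans* hermaphrodites of the wild-type strain N2 that had eaten, from the first larval stage and for 96 h at 20 °C, bacteria carrying either an RNAi construct against *pri-1*, which encodes 1 subunit of the primase that starts new DNA strands, or the empty vector (EV). There were 3 *pri-1* RNAi libraries and 3 EV RNAi libraries. Eggs were scraped from washed plates, and their age is not given in the sources used here. The study reports that eggs laid under *pri-1* RNAi do not hatch and stop developing early, before morphogenesis. The study describes the libraries of a group as separate experiments. The question addressed here was whether the genes that sense and relay these stresses differed in RNA level between the 2 groups.

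The UPR-ER has 3 branches, each with a sensor in the ER membrane. IRE-1 is a kinase and endoribonuclease that cuts the *xbp-1* mRNA, the RNA ligase RTCB-1 joins the pieces, and the spliced mRNA encodes an active transcription factor. PEK-1, the worm PERK, and GCN-2, a kinase that responds to amino acid shortage with the help of GCN-1, both phosphorylate the translation factor eIF2, which lowers general translation while favouring that of the transcription factor ATF-4. ATF-6 is, in mammals, a transcription factor released from the membrane by cleavage. All these steps act on protein activity, splicing or translation, none of which a gene-level RNA value shows. For PEK-1, the study's immunoblots found more phosphorylated eIF2 alpha subunit in *pri-1* RNAi embryos, a rise that required *pek-1*. In RNA from whole embryos, fewer cells that use a gene and less RNA per cell cannot be told apart.

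Levels are given as CPM, the reads of a gene relative to 1000000 reads of its library. The 6 libraries held between 122751288 and 162069414 recovered reads, and the 8 genes had between 233 reads (*rtcb-1* in EV RNAi replicate 3) and 265033 reads (*xbp-1* in *pri-1* RNAi replicate 3), so that counting error was small beside the differences between replicates. All 8 genes passed the filter of 0.5 CPM in at least 3 libraries. The median gene had an SD of 0.29 over the *pri-1* RNAi libraries and of 0.45 over the EV RNAi libraries on the log2 scale. The targeted gene *pri-1* had 28.6, 28.7 and 24.3 CPM in *pri-1* RNAi embryos, against 41.2, 47.2 and 26.9 CPM in EV RNAi embryos, and its log2 fold change of -0.46 (SE 0.29) did not pass the test (limma, adjusted p = 0.285). It was -0.69 to -0.21 over 19 alternative settings, with adjusted p-values from 0.0553 (DESeq2) to 0.619 (limma). With trimmed-mean factors, *pri-1* had 24.8, 30.7 and 24.1 CPM in *pri-1* RNAi, against 39.4, 37.3 and 38.7 CPM in EV RNAi embryos. The gene of the other primase subunit, *pri-2*, rose by 1.19 on the log2 scale (SE 0.29, limma, adjusted p = 0.0208). Its adjusted p was 0.0797 (log2 fold change 0.99) without *pri-1* RNAi replicate 1 and 0.0935 (1.20) without replicate 3, the highest over the alternatives. The lowest, 9.06e-05, came from a limma fit with library numbers as a block. In that fit EV RNAi replicate 2 and *pri-1* RNAi replicate 3 do not enter the fold change.

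None of the 8 genes passed the test. With limma, 0 of 8 were higher, beside 17.3% of the 14801 tested genes, and 0 of 8 were lower, beside 9.94%. At an unadjusted p under 0.05 there was 1 of 8, *xbp-1*, beside 39.5% of tested genes. The count test of edgeR on recovered reads also called 0 of 8, beside 20.2% of genes higher and 15.5% lower. DESeq2 called 0 of 8 higher, beside 24.0%, and 1 of 8 lower, *rtcb-1*, beside 19.2%. The fold change was above 0 for 6 of the 8 genes, with a median of 0.19 on the log2 scale, against -0.01 over all tested genes. The levels of all *pri-1* RNAi libraries lay above those of all EV RNAi libraries for *xbp-1* alone, where 25.4% of all tested genes did so, and below them for *atf-4* alone, where 19.8% did so. The other 6 genes overlapped between the groups. With 3 libraries in each group, the exact permutation test (two-sided) cannot give a p-value under 0.1 for any gene.

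**Figure D1:**
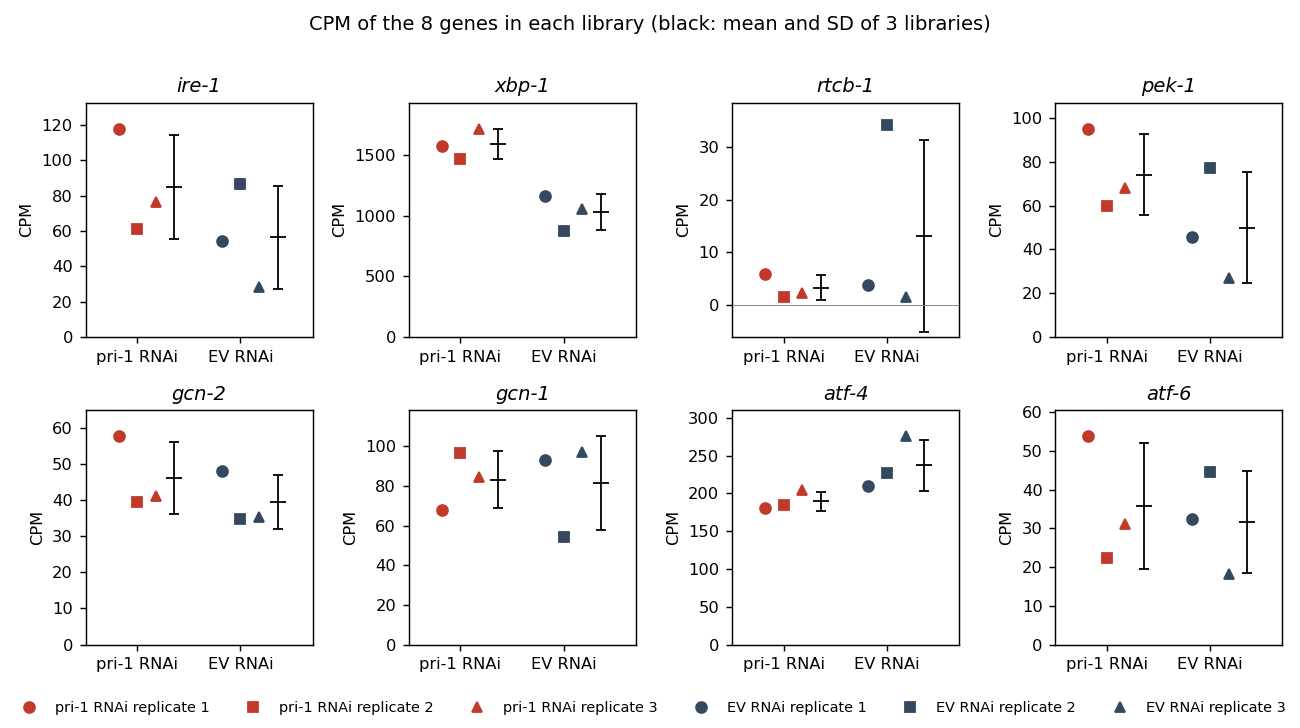
Levels of the 8 genes in CPM (vertical axes, each with its own range) in the 3 *pri-1* RNAi libraries (red) and the 3 EV RNAi libraries (dark), with marker shapes for the replicate and black bars for the mean and SD of 3 libraries. *xbp-1* lies between 1471 and 1716 CPM in *pri-1* RNAi embryos, above 870 to 1163 CPM in EV RNAi embryos, and EV RNAi replicate 2 has 34.2 CPM of *rtcb-1*, where no other library exceeds 5.96 CPM.

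In the IRE-1 branch, *ire-1* (WBGene00002147, chromosome II, 8112243 to 8124910, minus strand, WBcel235) had 118, 61.0 and 76.2 CPM in *pri-1* RNAi embryos, against 54.4, 86.4 and 28.2 CPM in EV RNAi embryos. EV RNAi replicate 2 exceeded 2 of the 3 values of *pri-1* RNAi embryos, and replicates of 1 group differed by up to 3.06-fold. The means were 84.9 ± 29.4 CPM in *pri-1* RNAi embryos and 56.3 ± 29.1 CPM in EV RNAi embryos (SD, n = 3 each). On the log2 scale the fold change of 0.67 (SE 0.44) gave an adjusted p of 0.294 with limma, and its 95% interval ran from 0.792-fold to 3.22-fold. It was 0.25 without EV RNAi replicate 3, 0.41 without *pri-1* RNAi replicate 1 and 1.05 without EV RNAi replicate 2. The spread between replicates depended on the scaling. With trimmed-mean factors, *ire-1* ran from 65.2 to 102 CPM in *pri-1* RNAi embryos and from 40.6 to 68.2 CPM in EV RNAi embryos. EV RNAi replicate 2 then exceeded only *pri-1* RNAi replicate 2, and the groups still overlapped. The span of *ire-1* overlaps *unc-105* on the opposite strand over 6456 bases. The library kit marks strand, and Salmon was set to detect the library type from the reads.

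The *xbp-1* gene (WBGene00006959, chromosome III, 4193809 to 4195358, plus strand) encodes the transcription factor of this branch. It had 1577, 1471 and 1716 CPM in *pri-1* RNAi embryos, against 1163, 870 and 1057 CPM in EV RNAi embryos. The lowest of the 3 *pri-1* RNAi values exceeded the highest EV RNAi value, with means of 1588 ± 123 CPM and 1030 ± 148 CPM in *pri-1* RNAi and EV RNAi embryos (SD, n = 3 each). Its log2 fold change was 0.63 (SE 0.20, 95% interval from 1.12-fold to 2.15-fold) and missed the threshold (limma, p = 0.0152, adjusted p = 0.0542; exact permutation test, p = 0.1). The gap depended on the scaling. With trimmed-mean factors, EV RNAi replicate 3 had 1522 CPM, above the 1368 CPM of *pri-1* RNAi replicate 1, and the groups overlapped. The fold change was above 0 under all 19 alternatives, and the adjusted p ranged from 0.0486, with a pseudocount of 0.1 (17.1% of tested genes higher), to 0.517 with edgeR. The deposited values sum over both forms of the mRNA, so the spliced share was not analysed here.

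The third gene, *rtcb-1* (WBGene00008877, chromosome I, 9390833 to 9393095, minus strand), encodes the ligase, which also joins the exons of spliced tRNAs. It had 5.96, 1.46 and 2.28 CPM in *pri-1* RNAi embryos, against 3.75, 34.2 and 1.52 CPM in EV RNAi embryos. EV RNAi replicate 2, with 4356 reads, stood apart from all other libraries, and the remaining 5 libraries overlapped. The log2 fold change was -1.03 with an SE of 1.00 (limma, adjusted p = 0.493), and the interval from 0.0972-fold to 2.47-fold left the direction undetermined. Without EV RNAi replicate 2 the log2 fold change was 0.16, and without any other library it was -1.89 to -0.66. DESeq2, with that library, gave -1.96 and an adjusted p of 0.0443, within a range over the alternatives from 0.0443 to 0.857. EV RNAi replicate 2 held 42 genes at least 5-fold above every other library, *rtcb-1* among them, against 14 in EV RNAi replicate 1, 3 in *pri-1* RNAi replicate 2 and 0 in the other 3 libraries. The gene with the pattern most like *rtcb-1* was *cyn-16*, a cyclophilin gene, with 7.22, 2.50 and 3.35 CPM in *pri-1* RNAi embryos and 5.03, 60.6 and 2.76 CPM in EV RNAi embryos.

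Among the kinases of eIF2, *pek-1* (WBGene00003970, chromosome X, 11410176 to 11414887, minus strand) followed *ire-1* through the libraries. It had 95.1, 59.6 and 67.9 CPM in *pri-1* RNAi embryos, against 45.7, 77.1 and 26.8 CPM in EV RNAi embryos, and again EV RNAi replicate 2 exceeded 2 of the 3 values of *pri-1* RNAi embryos. Means were 74.2 ± 18.5 CPM in *pri-1* RNAi embryos and 49.9 ± 25.4 CPM in EV RNAi embryos (SD, n = 3 each). The log2 fold change of 0.67 (SE 0.40, 95% interval from 0.837-fold to 3.02-fold) did not pass (limma, adjusted p = 0.257). Without EV RNAi replicate 2 it was 1.04 with an adjusted p of 0.0433 (19.3% of tested genes higher), whereas without EV RNAi replicate 3 it was 0.29 with an adjusted p of 0.495. Over all alternatives the adjusted p ranged from 0.000437 to 0.518. With trimmed-mean factors *pek-1* had 82.5, 63.8 and 67.3 CPM in *pri-1* RNAi embryos and 43.7, 60.9 and 38.6 CPM in EV RNAi embryos, which no longer overlapped, as for 24.7% of all tested genes. Median centring, which moved the median of all genes by 0.21, put both *ire-1* (0.89, adjusted p = 0.0444) and *pek-1* (0.88, adjusted p = 0.0325) past the threshold, beside 21.7% of tested genes. So did a fit with the library numbers of the sample descriptions as a block, which called 28.1% of tested genes higher. By these numbers EV RNAi replicate 2 and *pri-1* RNAi replicate 3 have no partner, so they did not enter its fold changes. The lowest adjusted p of both genes came from that fit. For *ire-1* the adjusted p ranged from 0.000288 to 0.593 over the alternatives.

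The second eIF2 kinase gene, *gcn-2* (WBGene00013591, chromosome II, 13084164 to 13091501, plus strand), had 57.7, 39.6 and 41.3 CPM in *pri-1* RNAi embryos, against 48.2, 34.9 and 35.4 CPM in EV RNAi embryos. In both groups replicate 1 was the highest, and the groups overlapped. It had a log2 fold change of 0.22 (SE 0.27, 95% interval from 0.759-fold to 1.79-fold, limma, adjusted p = 0.585), and it was 0.05 to 0.37 when a library was left out. Its coactivator gene *gcn-1* (WBGene00021697, chromosome III, 2151945 to 2197908, plus strand) had 68.0, 96.8 and 84.6 CPM in *pri-1* RNAi embryos, against 93.1, 54.3 and 96.9 CPM in EV RNAi embryos. Its means were 83.1 ± 14.5 CPM and 81.4 ± 23.6 CPM in *pri-1* RNAi and EV RNAi embryos (SD, n = 3 each). The log2 fold change of *gcn-1* was 0.06 (SE 0.29, limma, adjusted p = 0.901), with an interval from 0.654-fold to 1.66-fold. Its sign turned with trimmed-mean scaling (-0.019) and without EV RNAi replicate 2 (-0.21) or *pri-1* RNAi replicate 2 (-0.06).

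The transcription factor gene downstream of both kinases, *atf-4* (WBGene00000221, chromosome X, 14809156 to 14810810, minus strand), had 180, 185 and 204 CPM in *pri-1* RNAi embryos, against 210, 227 and 275 CPM in EV RNAi embryos. Every *pri-1* RNAi library was below every EV RNAi library. The means were 190 ± 12.4 CPM in *pri-1* RNAi embryos and 237 ± 33.8 CPM in EV RNAi embryos (SD, n = 3 each). A log2 fold change of -0.32 (SE 0.20) did not pass the test (limma, adjusted p = 0.277; exact permutation test, p = 0.1). Its interval from 0.586-fold to 1.10-fold does not include a doubling of *atf-4* RNA. The fold change was below 0 under all 19 alternatives, and -0.20 without EV RNAi replicate 3. With trimmed-mean factors the levels were 157, 198 and 202 CPM in *pri-1* RNAi embryos and 201, 179 and 396 CPM in EV RNAi embryos, and the groups overlapped. On the same strand the span of *atf-4* shares 162 bases with another annotated gene, not found by name among the deposited genes. The span of *gcn-2* shares 79 bases with *Y81G3A.4*. Whether these stretches lie in exons, and whether reads from them were split, was not examined.

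The last sensor gene, *atf-6* (WBGene00000222, chromosome X, 12480948 to 12484904, plus strand), had 53.7, 22.2 and 31.2 CPM in *pri-1* RNAi embryos, against 32.4, 44.4 and 18.1 CPM in EV RNAi embryos. The groups overlapped over most of their range, and replicates differed by up to 2.42-fold in *pri-1* RNAi embryos and 2.45-fold in EV RNAi embryos. The log2 fold change of 0.17 (SE 0.44, limma, adjusted p = 0.814) had an interval from 0.555-fold to 2.27-fold, and it was -0.17 without *pri-1* RNAi replicate 1 and -0.18 without EV RNAi replicate 3. Here too the spread between replicates was smaller with trimmed-mean factors. Levels of *atf-6* then ran from 23.8 to 46.6 CPM in *pri-1* RNAi embryos and from 26.1 to 35.1 CPM in EV RNAi embryos, which still overlapped.

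**Figure D2:**
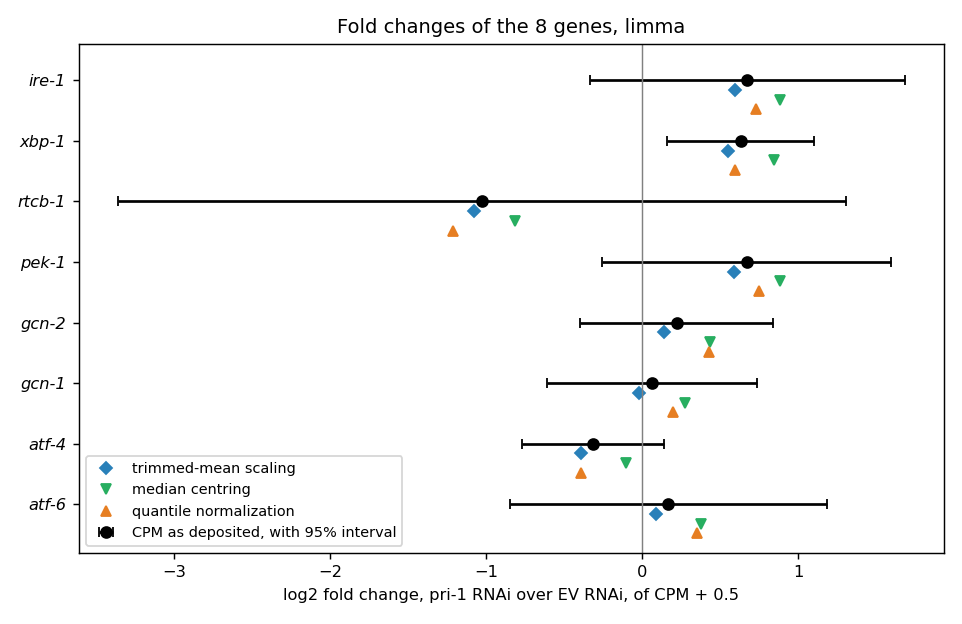
Log2 fold changes of the 8 genes (horizontal axis, *pri-1* RNAi over EV RNAi, of CPM + 0.5) from limma, as black points with 95% intervals, and under 3 other scalings as coloured points. The intervals of 7 genes include 0, that of *xbp-1* runs from 0.16 to 1.10 without multiple-test adjustment, and *gcn-1* changes sign with trimmed-mean scaling.

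Differences between genes of 1 library do not depend on how that library is scaled, and 7 such pairs were compared with exact permutation tests, none of which can pass 0.05. *pek-1* minus *ire-1*, the difference of their log2 levels, was -0.17 ± 0.14 in *pri-1* RNAi embryos and -0.16 ± 0.09 in EV RNAi embryos (SD, n = 3 each, exact permutation test, p = 0.9, adjusted p = 1.0). Over the 6 libraries, centred log2 levels of these 2 sensor genes differed by a root mean square of 0.09, and of 10203 genes compared, 16 were nearer to *ire-1* and 6 were nearer to *pek-1*. Both genes had higher levels in EV RNAi replicate 2 than in replicate 3, by 3.06-fold for *ire-1* and 2.88-fold for *pek-1*, and *atf-6* by 2.45-fold. On the log2 scale the median of all tested genes was also higher there, by 0.63. *xbp-1*, *atf-4* and *gcn-1* went the other way, at 0.824, 0.823 and 0.560 times their level in replicate 3.

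The remaining pairs set genes of 1 branch, or of neighbouring branches, against each other. *xbp-1* minus *ire-1* differed by -0.04 between *pri-1* RNAi and EV RNAi embryos (exact permutation test, p = 1.0), and by -0.54 without EV RNAi replicate 2 and 0.40 without EV RNAi replicate 3. *atf-6* minus *xbp-1* differed by -0.46 (exact permutation test, p = 0.6), and by -0.06 and -0.84 without these libraries. *atf-4* relative to its upstream kinases differed by -0.98 against *pek-1* and by -0.54 against *gcn-2* (exact permutation tests, p = 0.3 each). Without EV RNAi replicate 3 these were -0.49 and -0.35, and without *pri-1* RNAi replicate 1 they were -0.76 and -0.33. *gcn-1* minus *gcn-2* differed by -0.16 (exact permutation test, p = 0.7), with a range from -0.38 to 0.15 when a library was left out. Only *rtcb-1* minus *ire-1* did not overlap, with -4.65 ± 0.41 in *pri-1* RNAi embryos and -2.95 ± 1.41 in EV RNAi embryos (SD, n = 3 each, exact permutation test, p = 0.1), and this difference of -1.70 was -0.89 without EV RNAi replicate 2. The adjusted p was at least 0.7 for all 7 pairs.

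**Figure D3:**
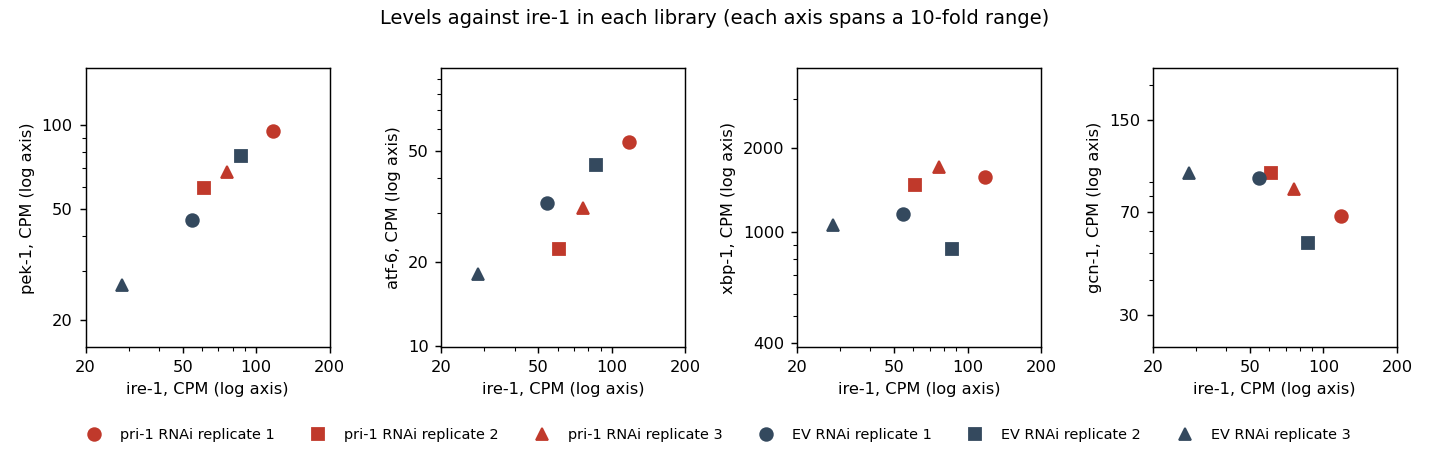
Levels of *pek-1*, *atf-6*, *xbp-1* and *gcn-1* (vertical axes, CPM) against *ire-1* (horizontal axis, CPM) in each of the 6 libraries, on log axes that all span a 10-fold range. *pek-1* lies close to 1 line over both groups, from 26.8 CPM in EV RNAi replicate 3 to 95.1 CPM in *pri-1* RNAi replicate 1, whereas *xbp-1* and *gcn-1* do not follow *ire-1*.

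Per kilobase of the longest annotated transcript, *xbp-1* had the highest level of the 8 genes, 1098.1 ± 84.8 CPM per kb in *pri-1* RNAi embryos and 712 ± 102 CPM per kb in EV RNAi embryos (SD, n = 3 each). *atf-4* followed with 176 ± 11.5 and 220 ± 31.3 CPM per kb in *pri-1* RNAi and EV RNAi embryos, and both genes stood apart from the next below them in each group. The sensors were far lower, in the order *ire-1* (24.98 CPM per kb in *pri-1* RNAi and 16.6 in EV RNAi embryos), *pek-1* (20.0 and 13.4) and *atf-6* (14.9 and 13.2). They were followed by *gcn-1* (10.2 and 9.98), and all these neighbours overlapped over the replicates. At the low end, *gcn-2* (8.34 CPM per kb) stood apart from *rtcb-1* (1.97 CPM per kb) in *pri-1* RNAi embryos, but the 2 overlapped in EV RNAi embryos (7.12 and 8.02 CPM per kb).

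By the same measure of likeness as for *cyn-16*, the genes nearest to the other members were *F09E5.7* for *ire-1* (root mean square 0.03), *Y111B2A.3* for *xbp-1* (0.04), *F35E12.6* for *gcn-1* (0.04), *hrdl-1* for *atf-4* (0.04), *ify-1* for *gcn-2* (0.05), *gen-1* for *atf-6* (0.06) and *rfc-4* for *pek-1* (0.07). For *rtcb-1* and *cyn-16* the value was 0.19. These are descriptions over 6 libraries, and all genes of a library share its depth and composition.

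Downstream of the ER sensors, 4 of 16 genes listed as ER folding and degradation outputs rose in *pri-1* RNAi embryos and 0 fell. Of all tested genes 17.3% and 9.94% did so, and the median log2 fold change of the list was 0.42. Among the 4 was *ckb-2*, a choline kinase gene rather than a folding or degradation gene. The chaperone gene *hsp-4*, the worm BiP and the usual readout of IRE-1 and XBP-1, had 1260, 1215 and 1448 CPM in *pri-1* RNAi embryos, against 428, 261 and 368 CPM in EV RNAi embryos, and rose by 1.92 on the log2 scale (SE 0.24, limma, adjusted p = 0.00156). The choline kinase gene *ckb-2* had 81.2, 40.6 and 71.4 CPM in *pri-1* RNAi embryos, against 11.3, 12.0 and 6.84 CPM in EV RNAi embryos, and rose by 2.60 (SE 0.37, limma, adjusted p = 0.00257). Both passed the test under all 19 alternatives. In embryos of the study's GFP reporter strains, *hsp-4* induction by *pri-1* RNAi remained in part in *ire-1* or *xbp-1* mutants. It was reduced in *atf-6* mutants, so the rise of *hsp-4* does not assign it to 1 branch. The GRP94 chaperone gene *enpl-1* (0.71, adjusted p = 0.0310) and the disulfide isomerase gene *pdi-1* (0.95, adjusted p = 0.0439) passed under 8 and 7 of the 19 alternatives. Of the 6 fits that left out a library, each passed only without EV RNAi replicate 3 (0.72 and 1.20) and had adjusted p-values from 0.0535 to 0.160 and from 0.0615 to 0.177 in the other 5. In 7 of the 16 genes all *pri-1* RNAi libraries lay above all EV RNAi libraries, beside 25.4% of all tested genes, and in 1, *dnj-27*, below them, beside 19.8%. The gap depended on the scaling. With trimmed-mean factors only *hsp-4*, *cup-2*, *ckb-2* and *uggt-1* lay above, beside 24.7% of all tested genes, and *ero-1* lay below. *enpl-1*, *pdi-1*, *pdi-2*, *pdi-6* and *dnj-27* then overlapped. Of these, *cup-2*, *uggt-1*, *ero-1*, *pdi-2* and *pdi-6* were named after their values were seen.

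Around eIF2, 1 of 12 subunit, exchange factor and partner genes rose and 0 fell, beside the same 17.3% and 9.94% of all tested genes, with a median log2 fold change of 0.13. The subunit gene *eif-2beta* had 340 ± 43.4 CPM in *pri-1* RNAi embryos and 183 ± 46.9 CPM in EV RNAi embryos (SD, n = 3 each), a log2 fold change of 0.91 (SE 0.24, limma, adjusted p = 0.0278). It passed under 14 of the 19 alternatives. Without *pri-1* RNAi replicate 1 or 3, or EV RNAi replicate 1, its log2 fold change was 0.85 to 0.89 with an adjusted p of 0.0937 to 0.134. The gene of the subunit that the kinases phosphorylate, *eif-2alpha*, had 129, 199 and 155 CPM in *pri-1* RNAi embryos, against 267, 225 and 365 CPM in EV RNAi embryos, and its log2 fold change of -0.82 missed the threshold (SE 0.26, limma, adjusted p = 0.0528). It passed without EV RNAi replicate 2 (-0.98, adjusted p = 0.0257) and had an adjusted p of 0.0511 to 0.181 when another library was left out. *abcf-3*, whose yeast relative Gcn20 works with Gcn1, reached 0.68 on the log2 scale (adjusted p = 0.0653), and the subunit gene *eif-2gamma* had 0.61 (adjusted p = 0.0996). These passed without EV RNAi replicate 2 (0.86, adjusted p = 0.0247) and without EV RNAi replicate 3 (0.80, adjusted p = 0.0287), and had adjusted p-values of at least 0.0920 and 0.167 when another library was left out.

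Enzymes of amino acid and one-carbon metabolism, many of whose genes ATF4 drives in mammals, gave 1 of 10 higher and 3 of 10 lower, against 17.3% and 9.94% of all tested genes, with a median log2 fold change of -0.05. The asparagine synthetase gene *asns-2* had 837, 889 and 877 CPM in *pri-1* RNAi embryos, against 247, 332 and 343 CPM in EV RNAi embryos, and rose by 1.51 on the log2 scale (SE 0.20, limma, adjusted p = 0.00212). *Y62E10A.13*, the gene of a phosphoserine phosphatase, had 77.6 ± 13.3 CPM in *pri-1* RNAi embryos and 208 ± 30.9 CPM in EV RNAi embryos (SD, n = 3 each), with a log2 fold change of -1.42 (limma, adjusted p = 0.00400). Both calls held under all 19 alternatives. The folate enzyme gene *alh-3* (-1.32, adjusted p = 0.00956) lost its call without *pri-1* RNAi replicate 3 (-1.20, adjusted p = 0.0603) and passed under the other 18 alternatives. The cystathionine gamma-lyase gene *cth-1* (-0.99, adjusted p = 0.0301) passed under 12 of the 19 alternatives. Of the 6 fits that left out a library, it passed only without EV RNAi replicate 2 (-0.96) or 3 (-1.05) and had adjusted p-values of 0.0571 to 0.166 in the other 4.

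**Figure D4:**
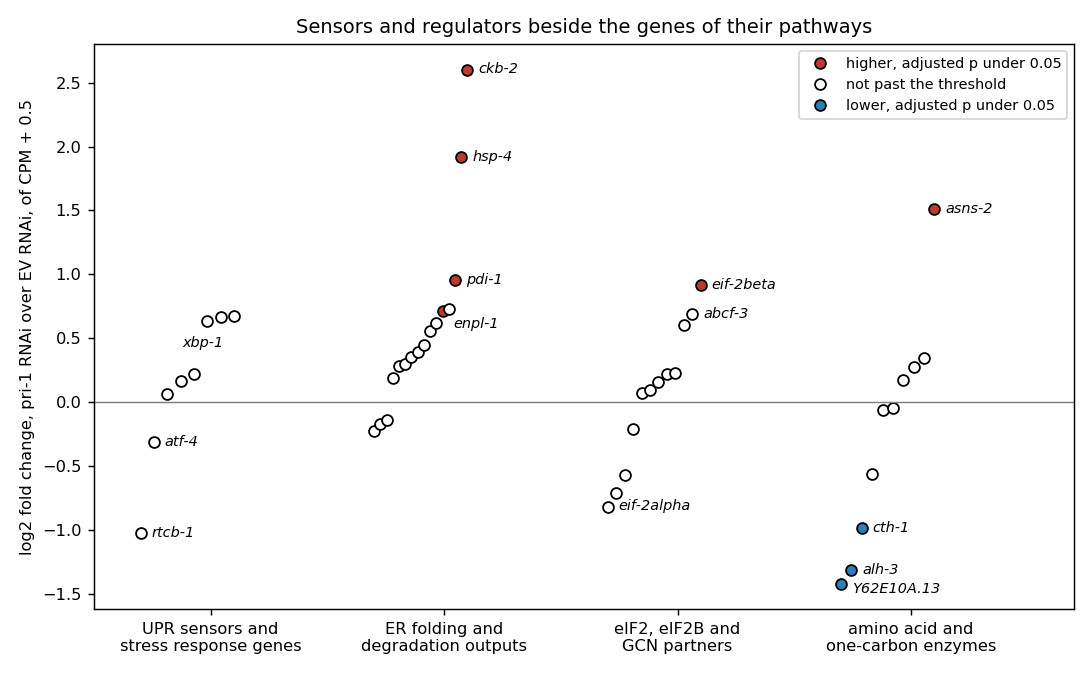
Log2 fold changes (vertical axis, *pri-1* RNAi over EV RNAi, of CPM + 0.5) of the 8 stress sensor and regulator genes and of 3 pathway lists, 1 point per gene in ascending order, with filled points past an adjusted p of 0.05 (limma). The sensors and regulators have 0 filled points. The ER folding and degradation list has 4 (the choline kinase gene *ckb-2* at 2.60 the highest), the eIF2 genes 1, and the enzymes 1 above and 3 below 0.

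Marker genes of embryonic tissues and of other possible sources of RNA were summed in each library, and their calls are to be read beside 17.3% of all tested genes higher and 9.94% lower. The sums did not overlap between the groups for germ plasm, cuticle and sperm genes, and overlapped for lineage regulators, muscle and yolk genes. Summed over 11 germ plasm and early embryo genes, levels were 345 to 488 CPM in *pri-1* RNAi and 104 to 224 CPM in EV RNAi embryos (3 genes higher, 1 lower). The 10 lineage regulators summed to 256 to 347 CPM in *pri-1* RNAi and 250 to 407 CPM in EV RNAi embryos (2 higher, 0 lower). Late embryo muscle genes summed to 2759 to 6186 CPM in *pri-1* RNAi and 4392 to 10027 CPM in EV RNAi embryos (0 higher, 1 lower of 9), and cuticle and apical matrix genes to 2293 to 4726 CPM in *pri-1* RNAi and 5986 to 11187 CPM in EV RNAi embryos (1 higher, 4 lower of 8). Yolk protein genes of the adult intestine summed to 16.7 to 61.3 CPM in *pri-1* RNAi and 13.03 to 782 CPM in EV RNAi embryos, with 0 of 6 called, and 10 sperm genes to 4.29 to 6.38 CPM in *pri-1* RNAi and 1.39 to 3.64 CPM in EV RNAi embryos, where both tested genes were higher. No marker gene was under 3 reads in every library. With the early arrest that the study reports, embryo stage and *pri-1* RNAi go together in these libraries and cannot be told apart. The part of embryo age or tissue makeup in the values of the stress genes was not tested.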

How the data were processed

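RNA-seq was the experiment of the study analysed here, in 3 *pri-1* RNAi and 3 EV RNAi libraries of N2 embryos. Per the labels and the study's methods, the authors trimmed reads (Trimmomatic 0.36), assigned them to WBcel235 transcripts (Salmon 1.4.0), summed the estimates into genes and deposited CPM for 19933 genes, unfiltered. CPM sum to 1000000 per library and carry no further scaling. Reads were recovered from the step between low values: 94.8% to 96.2% of values up to 20 reads, and 92.7% to 94.4% of all values, came out whole within 0.1. Of the whole values up to 20 reads, 55.3% (*pri-1* RNAi replicate 3) to 68.7% (EV RNAi replicate 3) were even. Whether the step equals 1 counted read, on which all recovered reads rest, was not tested. A level of 3 reads was 0.0185 to 0.0244 CPM, which covers counting error only.

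The main test was limma 3.58.1 (R 4.3.3, eBayes with trend) on log2(CPM + 0.5) of the 14801 genes that reached 0.5 CPM in 3 or more libraries. The fit had no covariate and used Benjamini-Hochberg adjustment over all of them and a threshold of 0.05. Adding 0.5 understates fold changes of low genes such as *rtcb-1*. Alternatives were other pseudocounts, filters, scalings, variance models and blocks, each library left out in turn, and edgeR 4.0.16 and DESeq2 1.42.0 on recovered reads (more than 10 in at least 3 libraries). The procedures were tested on simulated data. Coordinates come from Ensembl release 115, in which 95.8% of symbols were found.

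The 8 genes and the lists were chosen with earlier results of these data known. Named genes are these 8, *pri-1* and *pri-2*, up to 4 genes per pathway list with the smallest p-values, *hsp-4*, and for each of the 8 the gene with the smallest root-mean-square difference of centred log2 levels (mean of at least 5 CPM). Lists are described by counts and medians, without a set test. Other genes are marked as named after their values were seen, as is *dnj-27*, the 1 gene of its list whose groups separated downward.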

Additional observations from a re-analysis of the deposited data

How the results depend on the processing

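Each library left out in turn, 13 other settings and 8 genes gave 152 results, of which 134 kept their sign and side of the threshold, 7 passed it and 11 changed sign. Passing were *ire-1* (0.89) and *pek-1* (0.88) with median centring, both (1.10 and 1.09) with the library numbers of the sample descriptions as a block (the library block), *pek-1* (1.04) without EV RNAi replicate 2, *xbp-1* (0.63) with a pseudocount of 0.1 and *rtcb-1* (-1.96) with DESeq2, so that 2, 2, 1, 1 and 1 of the 8 genes were called, beside 21.7%, 28.1%, 19.3% and 17.1% of all genes higher and 19.2% lower. Signs changed for *rtcb-1* (0.28 with the library block, 0.16 without EV RNAi replicate 2), *gcn-1* (-0.019 with trimmed-mean scaling, -0.23 with the library block, -0.06 without *pri-1* RNAi replicate 2, -0.21 without EV RNAi replicate 2, -0.24 with edgeR, -0.21 with DESeq2), *gcn-2* (-0.0050 with edgeR) and *atf-6* (-0.17 without *pri-1* RNAi replicate 1, -0.18 without EV RNAi replicate 3). The cause was not tested.

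Of all genes, 2564 were higher and 1471 lower. Higher counts were 1059 at a mean of at least 5 CPM, 4159 with the library block and 4255 with DESeq2, and lower counts were 2552 with quantile normalization, 2760 with edgeR and 3414 with DESeq2. The share of calls that were higher was 63.5%, against 55.8% with trimmed-mean scaling, 71.7% with median centring, 49.2% with quantile normalization, 56.6% with edgeR and 55.5% with DESeq2, and relative to CPM as deposited these shifted the median of all genes by -0.07, 0.21, -0.05, -0.23 and -0.19. Genes of the ER folding list higher were 2 of 16 with trimmed-mean scaling, median centring, no variance trend, edgeR and DESeq2. Of all tested genes, 21.7% were higher with median centring, 20.2% with edgeR and 24.0% with DESeq2. With trimmed-mean scaling 2732 of 14801 were higher, and without a variance trend 2458. Genes around eIF2 higher were 2 of 12 with median centring and quantile normalization. They were 0 with the replicate block and edgeR and 3 with the library block. Of all 14801 tested genes, 2473 were higher with quantile normalization, 2110 with the replicate block and 28.1% with the library block. Genes around eIF2 lower were 1 with quantile normalization, the library block, edgeR and DESeq2. Of all tested genes, 2552, 1917, 15.5% and 19.2% were lower in these settings. Enzymes higher were 2 of 10 with the library block, beside 28.1% of all tested genes. With a library left out, counts ranged from 1437 to 2853 (all genes higher), 273 to 2993 (all lower), 0 to 1 (the 8 genes higher), 2 to 5 (ER folding higher), 0 to 2 (eIF2 higher), 0 to 2 (eIF2 lower) and 1 to 4 (enzymes lower), and the log2 fold change of *rtcb-1* ranged from -1.89 to 0.16. All genes higher were fewest without *pri-1* RNAi replicate 3, and all genes lower were 465, 273, 373 and 2993 without *pri-1* RNAi replicate 1, *pri-1* RNAi replicate 3, EV RNAi replicate 1 and EV RNAi replicate 3. *pri-2* was at 0.99 and 1.20 without *pri-1* RNAi replicate 1 or 3.

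Titles number replicates alike in both groups, and deviations from the group means correlated at 0.04, -0.32 and 0.46. With 3 libraries per group the deviations of a gene sum to 0, so these values cannot settle whether the numbers pair the samples. The main fit used no pairing. The replicate block gave 2110 genes higher, and library numbers (0.04 and 0.37) leave 4 libraries in pairs. Fold changes with the library block rest on these 4, without EV RNAi replicate 2 and *pri-1* RNAi replicate 3. Pair differences moved by less than the pooled SD of the 2 groups.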

Other observations

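Another translation factor gene stood out beside the eIF2 lists and was named after its values were seen. *eif-2A*, which encodes an initiation factor separate from the eIF2 complex, had 485, 357 and 503 CPM in *pri-1* RNAi embryos, against 102, 95.4 and 131 CPM in EV RNAi embryos. The lowest *pri-1* RNAi library was far above the highest EV RNAi library, and the log2 fold change was 2.02 (SE 0.23, limma, adjusted p = 0.00118), past the threshold under all 19 alternatives. A gene of similar name, *eif-2D*, had a log2 fold change of -0.54 (limma, adjusted p = 0.545) and overlapped between the groups.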
